A study of Homo sapiens with 4 samples.

Results

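The 38 genes described here make cholesterol and fatty acids, control that synthesis, or belong to the liver X receptor (LXR) pathway. They were taken by gene symbol from the 22187 genes that 4 RNA sequencing libraries listed, and all 38 were listed in every library and passed the filter on low counts. The libraries come from KMS18 and KMS28BM, human multiple myeloma lines that both carry t(4;14). In each line the PKCα knockdown library came from cells with a stable knockdown of PKCα, the kinase encoded by PRKCA, and the control library from cells with a luciferase construct. Each line gave 1 library of each construct. A contrast inside one line is therefore unreplicated. Only a difference over both lines can be tested, and the 2 lines are its only replication. The labels do not name the knockdown sequence or say whether the cells are clones.

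Cholesterol is built from acetyl-CoA through mevalonate, isoprenoid units, squalene and lanosterol. When sterols in the endoplasmic reticulum fall, SCAP carries the SREBP transcription factors to the Golgi, where they are cut free to induce the synthesis genes, and INSIG proteins hold SCAP back when sterols are plentiful. LXRs are nuclear receptors for oxysterols that induce sterol export, lipogenesis and a brake on lipoprotein uptake. Plasma cells expand their endoplasmic reticulum to secrete antibody, and that membrane needs both lipids.

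The libraries held between 37957404 and 39100504 expected counts after knockdown and between 37940949 and 39507281 in the controls. Abundance is given as FPKM, fragments per kilobase of the listed gene length, scaled to library depth. PRKCA was at 1.47 FPKM in KMS18 knockdown cells and 7.46 FPKM in KMS18 control cells, and at 2.43 FPKM in KMS28BM knockdown cells and 10.9 FPKM in KMS28BM control cells, so 19.7% and 22.4% of the control level was left. All 8 plasma cell markers reached 1 FPKM in every library, and they summed to 1224 and 1173 FPKM after knockdown, against 1989 and 1972 FPKM in the controls (KMS18, then KMS28BM). Whether that shift in the plasma cell markers bears on the lipid genes was not tested. Of the other markers, 3 erythroid genes were listed at 0 throughout, and none of 3 myeloid and 3 stromal genes reached 1 FPKM, with sums of at most 0.52 and 0.36 FPKM. Of 4 T cell genes TRAC alone reached 1 FPKM, in both KMS18 libraries, and the 4 summed to 5.52 and 0.25 FPKM after knockdown, against 2.52 and 0.17 FPKM in the controls (KMS18, then KMS28BM).

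Over both lines, 7 of the 38 genes passed the test. NR1H2, which encodes LXR beta, and MVK, mevalonate kinase, rose. MSMO1, a sterol demethylase, SCAP, the SREBP escort protein, and 3 genes of fatty acid and glyceride synthesis (ACLY, ACACA and LPIN1) fell. In bulk RNA, fewer cells that express a gene and less RNA per cell cannot be told apart. The test was edgeR's quasi-likelihood test of construct, with a term for the line and Benjamini-Hochberg adjustment over 14870 genes at 0.05, and it called 8.82% of those genes, 3.57% as higher and 5.25% as lower. The 7 called genes make 18.4% of the 38. Of the 38, 16 had an unadjusted p under 0.05, against 3919 of the 14870. These values over all genes also stand beside the counts by group given below. NR1H2 stood apart, with an adjusted p of 0.00292, while the adjusted p of the other 6 lay between 0.0333 and 0.0465, close to the threshold. NR1H2 alone of the 7 passed with no filter on low counts, and 0 of the 38 passed edgeR when the term for the line was dropped, where 1 had an unadjusted p under 0.05. DESeq2, with that term, also called 7 of the 38, but with SCD in place of MVK (DESeq2 adjusted p = 0.0667 for MVK). Over all genes tested DESeq2 called 1357.

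The differences were small and mostly went the same way in both lines. The median log2 difference of the 38 genes was -0.14, against 0.02 over all genes tested. Of the 38, 24 were below 0, against 7066 of all 14870. In 35 of 38 genes (92.1%) the log2 ratio had the same sign in KMS18 and KMS28BM, against 69.4% of all genes tested. SC5D, SREBF1 and ABCG1 were the exceptions. A size rule within a line, an absolute difference of 1 on log2(FPKM + 1) with at least 1 FPKM in either library, was met by 1 of 36 genes in KMS18, where 1.46% of all genes met it, and by 1 of 37 in KMS28BM, where 1.99% did. That gene was NR1H2 in both lines.

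**Figure D1:**
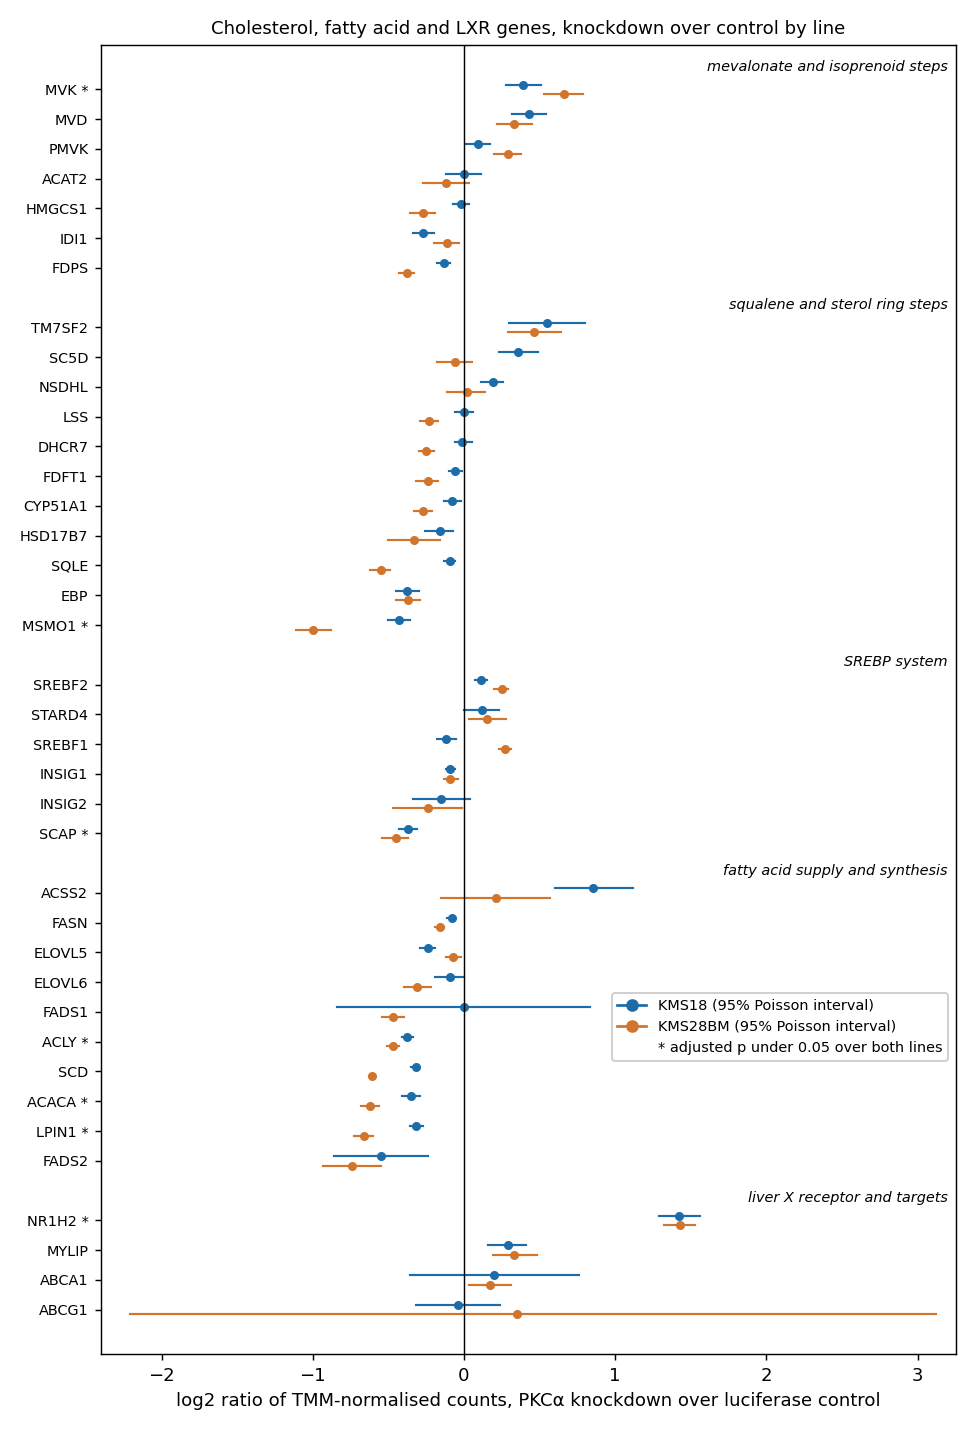
Log2 ratio of TMM-normalised counts, knockdown over control, for each of the 38 genes in KMS18 and KMS28BM, grouped by role, with 95% Poisson intervals that cover counting error only and asterisks on genes past the test over both lines. NR1H2 lies at 1.42 and 1.43, far to the right of the rest, and 9 of the 10 genes of fatty acid supply and synthesis have a fitted difference below 0.

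NR1H2 (chromosome 19, 50329653 to 50382982, plus strand, GRCh38) is the receptor of the LXR pathway that most tissues express. It was at 23.5 FPKM in KMS18 knockdown cells and 8.64 FPKM in KMS18 control cells. In KMS28BM it was at 37.3 FPKM in knockdown cells and 13.4 FPKM in control cells. Both knockdown libraries therefore lay above both controls, by 2.72 times in KMS18 and 2.78 times in KMS28BM. The log2 difference over both lines was 1.42 (SE 0.11, adjusted p = 0.00292, edgeR, higher in 2 of 2 lines). This rests on 1698 expected counts in KMS18 knockdown cells and 609 in KMS18 control cells, and on 2763 and 982 in those of KMS28BM. Its exons share no base with those of another annotated gene, and its listed length moved by 2.43% and 1.80%, so the count and the FPKM gave nearly the same ratio.

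The known LXR targets MYLIP, ABCA1 and ABCG1 did not pass the test. SCD, which LXR is also known to regulate, read lower and did not pass edgeR either (log2 difference -0.47). MYLIP, a ubiquitin ligase that limits lipoprotein uptake, was at 13.7 FPKM in KMS18 knockdown cells and 10.5 FPKM in KMS18 control cells, and at 10.8 FPKM in KMS28BM knockdown cells and 7.95 FPKM in KMS28BM control cells. Both knockdown libraries lay above both controls, but its log2 difference of 0.31 (SE 0.11, edgeR adjusted p = 0.145) did not pass. Each line expressed mainly one of the sterol exporters. ABCA1, which loads cholesterol onto apolipoproteins, was at 2.21 FPKM in KMS28BM knockdown cells and 1.86 FPKM in KMS28BM control cells, but at 0.15 and 0.26 FPKM in the KMS18 knockdown and control cells. ABCG1, which passes cholesterol to mature lipoproteins, was at 2.04 FPKM in KMS18 knockdown cells and 1.94 FPKM in KMS18 control cells, and had 4 and 3 counts in the KMS28BM knockdown and control libraries. The log2 differences were 0.18 for ABCA1 (SE 0.17, edgeR adjusted p = 0.545) and 0.02 for ABCG1 (SE 0.35, edgeR adjusted p = 0.983). The ABCA1 reading in KMS18 rests on 61 and 51 counts, and its log2 count ratio there had an interval from -0.36 to 0.76. A change of ABCG1 in KMS28BM was not detectable at this depth.

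SREBF1, which encodes SREBP1 and is itself a known LXR target, had values of opposite direction in the lines. It was at 47.7 FPKM in KMS18 knockdown cells and 60.3 FPKM in KMS18 control cells, and at 146 FPKM in KMS28BM knockdown cells and 126 FPKM in KMS28BM control cells. On normalised counts the log2 ratio was -0.12 in KMS18 (interval -0.18 to -0.05) and 0.27 in KMS28BM (0.23 to 0.31), and over both lines it was 0.08 (SE 0.12, edgeR adjusted p = 0.728). Its exons share 556 bases with RAI1 on the opposite strand, and the kit kept no strand, so reads there cannot be assigned with certainty. RAI1 had 1211 counts in KMS18 knockdown cells and 973 in KMS18 control cells, and 2987 in KMS28BM knockdown cells and 2174 in KMS28BM control cells.

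**Figure D2:**
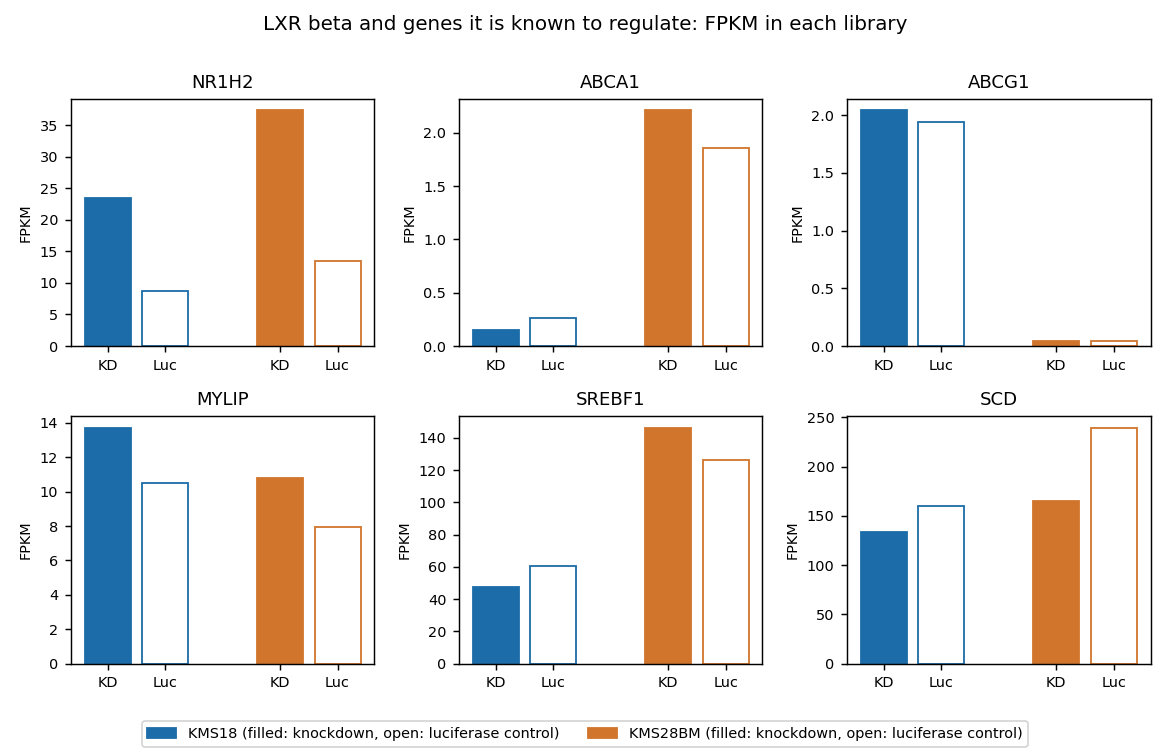
FPKM of NR1H2, ABCA1, ABCG1, MYLIP, SREBF1 and SCD in each library, with filled bars for knockdown (KD), open bars for the luciferase control (Luc) and 1 library per bar. NR1H2 is higher after knockdown in both lines, ABCA1 and ABCG1 differ mainly between the lines, and SCD is lower after knockdown.

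In the mevalonate and isoprenoid steps, 1 of 7 genes rose, 0 fell and 6 did not pass (edgeR, 3 at an unadjusted p under 0.05, 0 called by DESeq2). MVK (chromosome 12, 109573255 to 109598117, plus strand, GRCh38), which phosphorylates mevalonate, was at 18.6 FPKM in KMS18 knockdown cells and 13.4 FPKM in KMS18 control cells. In KMS28BM it was at 17.0 FPKM in knockdown cells and 10.1 FPKM in control cells. Both knockdown libraries lay above both controls, by 0.53 on the log2 count ratio over both lines (SE 0.12, adjusted p = 0.0443, edgeR). MVK shares 306 exonic bases with MMAB on the opposite strand, whose counts were 1316 and 1283 in the KMS18 knockdown and control libraries and 1360 and 1514 in those of KMS28BM.

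The next enzymes on the path also read higher without passing. The log2 difference was 0.38 for MVD, mevalonate diphosphate decarboxylase (SE 0.11, edgeR adjusted p = 0.073), and 0.19 for PMVK, phosphomevalonate kinase (SE 0.10, edgeR adjusted p = 0.299). MVD was at 28.3 FPKM in KMS18 knockdown cells and 19.9 FPKM in KMS18 control cells, and at 23.4 FPKM in KMS28BM knockdown cells and 17.6 FPKM in KMS28BM control cells. The enzymes on either side of these read slightly lower. FDPS, farnesyl diphosphate synthase, stood at -0.26 (SE 0.10, edgeR adjusted p = 0.177), and IDI1, isopentenyl diphosphate isomerase, had -0.19. HMGCS1, the HMG-CoA synthase, had -0.15, and ACAT2, which joins acetyl-CoA units, had -0.06. FDPS was the most abundant of these, at 203 FPKM in KMS18 knockdown cells and 224 FPKM in KMS18 control cells, and at 138 FPKM in KMS28BM knockdown cells and 175 FPKM in KMS28BM control cells. Its log2 ratio was -0.13 in KMS18 and -0.38 in KMS28BM, so either line alone moves the value over both. Processed copies of FDPS held at most 6 counts each. ACAT2 shares 397 exonic bases with TCP1 on the opposite strand, so its reads are less certain. TCP1 had 5584 and 6101 counts in the KMS18 knockdown and control libraries, against 1324 and 1275 for ACAT2. In those of KMS28BM TCP1 had 6346 and 7397, against 683 and 710 for ACAT2.

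Of the 11 genes from squalene to the sterol ring, 1 fell, 0 rose and 10 did not pass (edgeR, 4 at an unadjusted p under 0.05, 1 called by DESeq2). MSMO1 (chromosome 4, 165327623 to 165343160, plus strand, GRCh38), which removes methyl groups from the sterol ring, was at 34.3 FPKM in KMS18 knockdown cells and 43.6 FPKM in KMS18 control cells. In KMS28BM it was at 11.4 FPKM in knockdown cells and 21.7 FPKM in control cells. Its log2 difference was -0.71 (SE 0.15, adjusted p = 0.0333, edgeR), the lowest of the 38, and within the lines it was -0.43 and -1.0 (KMS18, then KMS28BM). The groups overlapped, since the KMS18 knockdown library was above the KMS28BM control.

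EBP, the sterol isomerase, had almost equal log2 ratios in both lines, -0.38 and -0.37, with -0.38 over both (SE 0.09, edgeR adjusted p = 0.0562). TM7SF2, a sterol reductase of the nuclear envelope and endoplasmic reticulum, went the other way. It was at 5.61 FPKM in KMS18 knockdown cells and 3.61 FPKM in KMS18 control cells, and at 10.7 FPKM in KMS28BM knockdown cells and 7.44 FPKM in KMS28BM control cells (log2 difference 0.51, SE 0.16, edgeR adjusted p = 0.0924). SQLE, the squalene epoxidase that paces the later pathway, had a log2 ratio of -0.09 in KMS18 and -0.55 in KMS28BM (edgeR adjusted p = 0.175). FDFT1, LSS, CYP51A1, HSD17B7 and DHCR7, which act from squalene synthesis to the last reductions, had log2 differences between -0.24 and -0.12, with edgeR adjusted p-values from 0.231 to 0.526. NSDHL had 0.10 and SC5D had 0.15. HSD17B7 has a copy, HSD17B7P2, listed with 109 and 118 counts in the KMS18 knockdown and control libraries and 32.5 and 18.7 in those of KMS28BM, so its reads are less certain.

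In the SREBP system, 1 of 6 genes fell, 0 rose and 5 did not pass (edgeR, 1 at an unadjusted p under 0.05, 1 called by DESeq2). SCAP (chromosome 3, 47413694 to 47477126, minus strand, GRCh38) was at 25.3 FPKM in KMS18 knockdown cells and 33.3 FPKM in KMS18 control cells. In KMS28BM it was at 12.5 FPKM in knockdown cells and 16.5 FPKM in control cells. In both lines 75.8% of the control FPKM was left, though the KMS18 knockdown library still lay above the KMS28BM control, and the log2 difference on counts was -0.41 (SE 0.09, adjusted p = 0.0444, edgeR, lower in 2 of 2 lines). With median of ratios scaling the SCAP adjusted p was 0.0516, and over all alternatives it ran from 0.0177 to 1.

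SREBF2, which encodes the SREBP most tied to sterol synthesis, was at 62.6 FPKM in KMS18 knockdown cells and 56.0 FPKM in KMS18 control cells, and at 45.2 FPKM in KMS28BM knockdown cells and 36.3 FPKM in KMS28BM control cells. Its log2 difference was 0.18 (SE 0.10, edgeR adjusted p = 0.304). INSIG1, the retention protein that SREBP itself induces, was at 149 FPKM in KMS18 knockdown cells and 156 FPKM in KMS18 control cells, and at 83.3 FPKM in KMS28BM knockdown cells and 84.6 FPKM in KMS28BM control cells. Its log2 difference was -0.09 (SE 0.09, edgeR adjusted p = 0.605), and the intervals within the lines ran from -0.12 to -0.06 and from -0.13 to -0.04. INSIG2, its paralogue, had -0.19 and STARD4, a cytosolic sterol carrier, had 0.13, and neither passed.

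The genes of fatty acid supply and synthesis leaned lowest. Of 10 genes, 3 fell, 0 rose and 7 did not pass (edgeR, 6 at an unadjusted p under 0.05, 4 called by DESeq2). A fitted difference below 0 was found in 9 of 10. Over all 14870 genes tested 5.25% fell, 3919 had an unadjusted p under 0.05 and 7066 had a fitted difference below 0. The median log2 difference of the 10 genes was -0.41, against 0.02 over all genes tested, with -0.28 in KMS18 and -0.47 in KMS28BM. Their summed abundance was 408 FPKM in KMS18 knockdown cells and 469 FPKM in KMS18 control cells, and 423 FPKM in KMS28BM knockdown cells and 543 FPKM in KMS28BM control cells.

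ACLY (chromosome 17, 41866908 to 41930542, minus strand, GRCh38), which makes cytosolic acetyl-CoA from citrate, was at 62.6 FPKM in KMS18 knockdown cells and 77.5 FPKM in KMS18 control cells. In KMS28BM it was at 60.6 FPKM in knockdown cells and 79.2 FPKM in control cells. Both knockdown libraries lay below both controls, and the log2 difference was -0.42 (SE 0.10, adjusted p = 0.0439, edgeR). ACACA (chromosome 17, 37084988 to 37406818, minus strand, GRCh38), the acetyl-CoA carboxylase that commits carbon to fatty acids, was at 15.2 FPKM in KMS18 knockdown cells and 18.5 FPKM in KMS18 control cells, and at 14.3 FPKM in KMS28BM knockdown cells and 19.9 FPKM in KMS28BM control cells. Here too the groups did not overlap (log2 difference -0.48, SE 0.11, adjusted p = 0.0392, edgeR). Whether the groups overlap also depends on the gap between the lines. That gap, KMS28BM minus KMS18 on the log2 axis, was -0.11 for ACLY and -0.15 for ACACA, against -1.38 for MSMO1 and -1.1 for SCAP, whose groups overlapped. The tables list ACACA under a pair of identifiers, and their counts were summed.

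LPIN1 (chromosome 2, 11677595 to 11827409, plus strand, GRCh38), a phosphatidate phosphatase on the way to triglycerides and phospholipids, was at 41.7 FPKM in KMS18 knockdown cells and 48.9 FPKM in KMS18 control cells. In KMS28BM it was at 18.1 FPKM in knockdown cells and 27.2 FPKM in control cells (log2 difference -0.49, SE 0.11, adjusted p = 0.0465, edgeR). It was lower after knockdown in both lines, but the KMS18 knockdown library lay above the KMS28BM control. The LPIN1 call was lost under 7 of 8 alternatives, among them median of ratios scaling (adjusted p = 0.0519), and its adjusted p over the alternatives ran from 0.0153 to 1.

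SCD, the desaturase that makes monounsaturated fatty acids, was the most abundant gene of the group. It was at 134 FPKM in KMS18 knockdown cells and 160 FPKM in KMS18 control cells, and at 165 FPKM in KMS28BM knockdown cells and 239 FPKM in KMS28BM control cells. Its log2 difference was -0.47 (SE 0.12, edgeR adjusted p = 0.0561), just short of a call. DESeq2 called it (adjusted p = 0.00199), and over all alternatives its adjusted p ran from 0.00199 to 1. FASN, the fatty acid synthase itself, was at 67.8 FPKM in KMS18 knockdown cells and 73.6 FPKM in KMS18 control cells, and at 66.8 FPKM in KMS28BM knockdown cells and 69.5 FPKM in KMS28BM control cells. Its log2 difference of -0.12 (SE 0.10, edgeR adjusted p = 0.496) was smaller in size than those of ACLY, ACACA and SCD. It was closer to those of the elongases ELOVL5 (-0.15) and ELOVL6 (-0.20), while ACSS2 read higher (0.55). The differences between these genes were not tested.

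The desaturases FADS1 and FADS2, neighbours on chromosome 11 that act on polyunsaturated fatty acids, had log2 differences of -0.39 (SE 0.15, edgeR adjusted p = 0.144) and -0.65 (SE 0.18, edgeR adjusted p = 0.0681). Their exons share 490 bases on opposite strands, so their reads are uncertain. FADS2 also shares 49 exonic bases with FEN1 on the same strand. FEN1 had 3883 and 6434 counts in the KMS18 knockdown and control libraries, against 149 and 209 for FADS2. In those of KMS28BM it had 4032 and 5553, against 370 and 591. The FADS1 value rests on KMS28BM, where the log2 ratio was -0.47. In KMS18, with 27 and 26 counts in knockdown and control cells, it was -0.00, with an interval from -0.84 to 0.83. The elongases ELOVL5 and ELOVL6 had -0.15 and -0.20. ACSS2, which makes acetyl-CoA from acetate, was the one gene of the group above 0. It was at 4.05 FPKM in KMS18 knockdown cells and 1.80 FPKM in KMS18 control cells, and at 1.59 FPKM in KMS28BM knockdown cells and 1.29 FPKM in KMS28BM control cells (log2 difference 0.55, SE 0.25, edgeR adjusted p = 0.219). The interval of its log2 count ratio was 0.60 to 1.12 in KMS18 and -0.15 to 0.57 in KMS28BM.

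**Figure D3:**
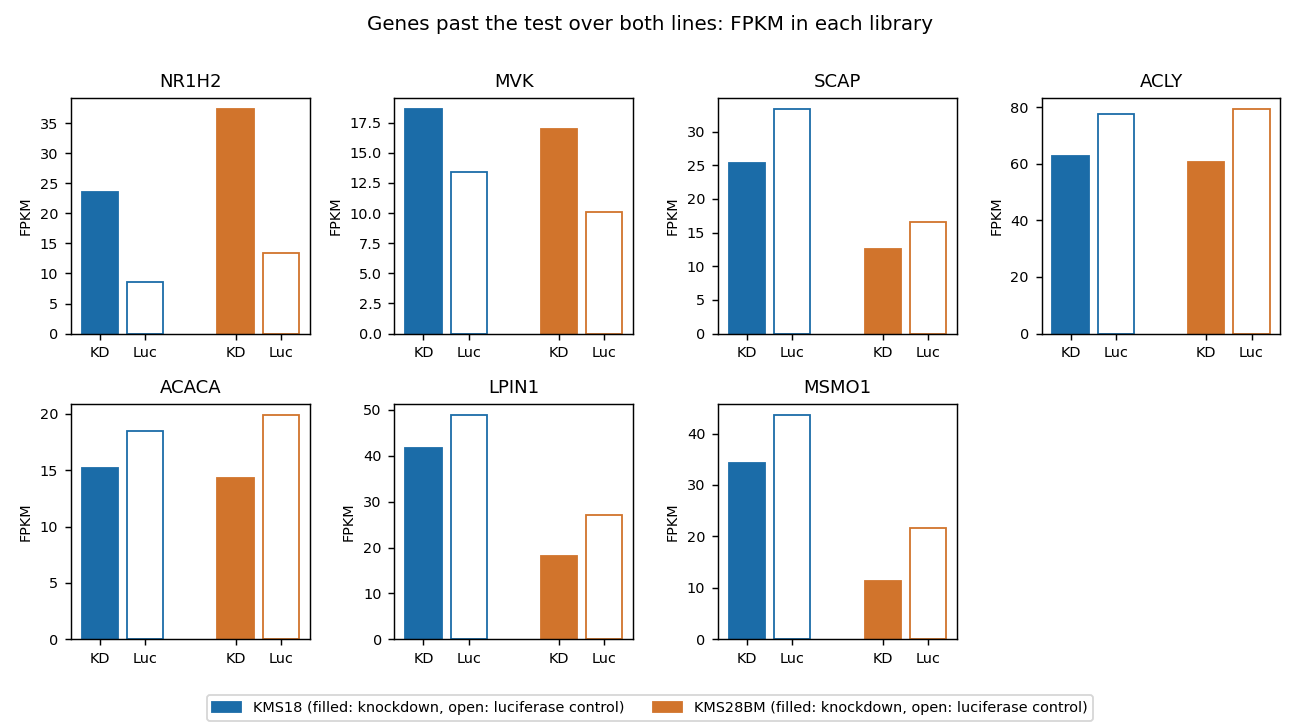
FPKM of the 7 genes that passed the test over both lines, with 1 library per bar, filled for knockdown (KD) and open for the luciferase control (Luc). NR1H2 and MVK are higher after knockdown in both lines, and SCAP, ACLY, ACACA, LPIN1 and MSMO1 are lower in both.

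Promoter windows of 250 bases before to 50 bases after the start site, from RefSeq on GRCh38.p14, were found for 33 of the 38 genes; FDFT1, SQLE, FASN, ACAT2 and ABCG1 had none. Each window was searched on both strands for CCAAT (the NF-Y box), CACGTG (an E-box), the SREBP-type words TCACCCCAC, its shorter form CACCCCAC, and CACCTGAG, and the LXR repeat DR4, which is AGGTCA repeated after 4 free bases. NF-Y is known to act beside SREBP at sterol gene promoters. CCAAT was present in 23 of 33 genes (69.7%), against 43.4% of 10259 tested genes with a window. CACGTG was present in 6 of 33 (18.2%, against 12.7%), CACCTGAG in 3 of 33 (9.09%, against 1.80%), CACCCCAC in 2 of 33 (6.06%, against 3.81%) and TCACCCCAC in SREBF2 alone (3.03%, against 0.624%). No window held DR4, which 1 of the 10259 genes had. Genes with several windows count once if any window matches. CCAAT did not sort the calls, since of the 23 genes that hold it MVK rose and MSMO1, ACLY and ACACA fell, and their median log2 difference was -0.13, against -0.18 for the 10 without it.

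The windows of NR1H2 and MVK, which rose, of MSMO1, the gene with the lowest difference, and of SREBF2, the one with the longer SREBP-type word, show how unlike they are. Capitals mark the matches, which are ATTGG where CCAAT lies on the other strand. All 4 lie on the plus strand, at chr19:50376207-50376506, chr12:109573544-109573843, chr4:165327419-165327718 and chr22:41832855-41833154 in that order.
NR1H2: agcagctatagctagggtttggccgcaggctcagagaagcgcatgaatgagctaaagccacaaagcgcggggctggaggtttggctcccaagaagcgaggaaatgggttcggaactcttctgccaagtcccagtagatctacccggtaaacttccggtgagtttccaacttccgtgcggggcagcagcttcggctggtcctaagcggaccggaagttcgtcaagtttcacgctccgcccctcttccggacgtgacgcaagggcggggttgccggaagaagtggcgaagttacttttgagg
MVK: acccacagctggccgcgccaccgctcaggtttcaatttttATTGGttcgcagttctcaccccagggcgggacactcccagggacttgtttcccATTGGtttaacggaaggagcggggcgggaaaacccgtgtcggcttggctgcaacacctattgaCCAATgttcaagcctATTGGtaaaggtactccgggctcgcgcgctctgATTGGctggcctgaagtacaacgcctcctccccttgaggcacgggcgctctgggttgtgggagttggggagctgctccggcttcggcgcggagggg
MSMO1: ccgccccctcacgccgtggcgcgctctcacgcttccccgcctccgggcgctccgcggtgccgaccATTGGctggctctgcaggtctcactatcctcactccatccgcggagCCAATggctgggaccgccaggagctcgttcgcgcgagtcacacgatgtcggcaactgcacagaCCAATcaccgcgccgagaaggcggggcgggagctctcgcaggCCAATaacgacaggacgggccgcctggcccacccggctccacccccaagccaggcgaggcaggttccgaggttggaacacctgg
SREBF2: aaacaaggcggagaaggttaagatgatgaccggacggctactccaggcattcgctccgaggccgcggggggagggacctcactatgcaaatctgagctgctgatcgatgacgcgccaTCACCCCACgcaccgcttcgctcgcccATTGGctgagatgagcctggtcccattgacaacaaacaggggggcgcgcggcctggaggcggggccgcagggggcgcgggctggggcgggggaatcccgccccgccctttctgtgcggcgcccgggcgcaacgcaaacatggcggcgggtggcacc
MVK holds CCAAT 5 times and MSMO1 4 times, and the NR1H2 window holds none of the words searched.

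An earlier search of these data, made after genes had been called, found AGTCTA and its longer forms AGTCTAA and CAGTCTA in the 3' UTRs of many lowered genes. In the GENCODE version 29 transcripts, AGTCTA was present in a 3' UTR of 10 of the 38 genes (26.3%), close to the 25.3% of 12753 tested genes with a coding transcript. Those 10 genes had a median log2 difference of -0.39, with 3 fallen and 0 risen, and the 28 without it had -0.12, with 2 fallen and 2 risen. Over all tested genes the medians were -0.09 with AGTCTA and 0.04 without, and 12.5% and 3.63% fell. So of the 5 genes that fell, MSMO1, SCAP and LPIN1 hold the word and ACLY and ACACA do not. SCD, EBP, FADS2, ELOVL6, INSIG1, SREBF2 and ABCA1 hold it and did not pass. The word was found among the lowered genes of these data, so lower values in its holders follow partly from that search. The length of the 3' UTR was not accounted for. No value here bears on whether the word acts in these cells.

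The sites in the 3 fallen genes and in SCD and FADS2, both lower without passing, are shown with AGTCTA in capitals, 5′ to 3′ on the transcript. They lie on GRCh38 at chr4:165342878-165342905 (plus strand), chr3:47413973-47414000 (minus strand), chr2:11825433-11825460 (plus strand), chr10:100364537-100364564 (plus strand) and chr11:61867060-61867087 (plus strand).
MSMO1: tggagtattttAGTCTAaaggcttttca
SCAP: ctgttacagacAGTCTAcctggggaaga
LPIN1: tggttaaagatAGTCTAtttcattggca
SCD: atgctgtcattAGTCTAtatggttctcc
FADS2: gctgctgttgcAGTCTAacccactaatc
The MSMO1 site extends to AGTCTAA, the SCAP site to CAGTCTA and the FADS2 site to both, while the LPIN1 and SCD sites hold the short word alone.

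The lines themselves differed far more than the constructs did. In the same edgeR fit, 28 of the 38 genes differed between KMS28BM and KMS18 across both constructs, 7 higher and 21 lower in KMS28BM. Over all 14870 genes tested 62.9% were called, 4555 as higher and 4796 as lower in KMS28BM. With 1 culture per line and construct, this is a difference between these lines only. Of the 11 genes from squalene to the sterol ring, 6 were lower in KMS28BM and TM7SF2 was higher. SQLE was at 28.4 and 39.3 FPKM in KMS28BM knockdown and control cells and at 126 and 128 FPKM in those of KMS18 (log2 difference -2.03, SE 0.13, edgeR adjusted p = 2.63e-05). HSD17B7 had -1.80, NSDHL -1.58, FDFT1 -1.47, MSMO1 -1.38 and EBP -0.29, while LSS, CYP51A1, SC5D and DHCR7 were not called. Together the 11 genes summed to 321 and 375 FPKM in KMS28BM knockdown and control cells and 582 and 598 FPKM in those of KMS18. Of the 7 genes of the mevalonate and isoprenoid steps 6 were lower in KMS28BM, HMGCS1 most (-1.76), and MVD was not called.

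The SREBP genes split between the lines. SREBF1 was higher in KMS28BM (log2 value 1.43, SE 0.12, edgeR adjusted p = 7.98e-05), while SREBF2 (-0.63), SCAP (-1.10), INSIG1 (-1.08), INSIG2 (-0.69) and STARD4 (-0.40) were lower. The widest gap belonged to FADS1, at 18.7 and 24.9 FPKM in KMS28BM knockdown and control cells and at 0.33 and 0.30 FPKM in those of KMS18, 6.86 apart on the log2 axis (SE 0.17, edgeR adjusted p = 4.39e-07). FADS2, next to it, was at 3.89 and 5.77 FPKM in KMS28BM knockdown and control cells and at 1.77 and 1.94 FPKM in those of KMS18 (log2 difference 1.27, edgeR adjusted p = 0.000785). The exporters crossed, with ABCA1 higher in KMS28BM (3.77, edgeR adjusted p = 6.06e-06) and ABCG1 lower, at 4 and 3 counts in KMS28BM against 221 and 218 in KMS18.

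Of the 10 genes of fatty acid supply and synthesis, 3 were called higher and 2 lower in KMS28BM. The lower ones were LPIN1 (log2 difference -1.13, edgeR adjusted p = 0.000181) and ACSS2 (-1.12, edgeR adjusted p = 0.00688). FASN, ACLY, ACACA, ELOVL5 and ELOVL6 were not called between the lines, with log2 differences between -0.18 and 0.00, and SCD was slightly higher in KMS28BM (0.36, SE 0.12, edgeR adjusted p = 0.0321). A p that misses the threshold does not show equal levels.

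**Figure D4:**
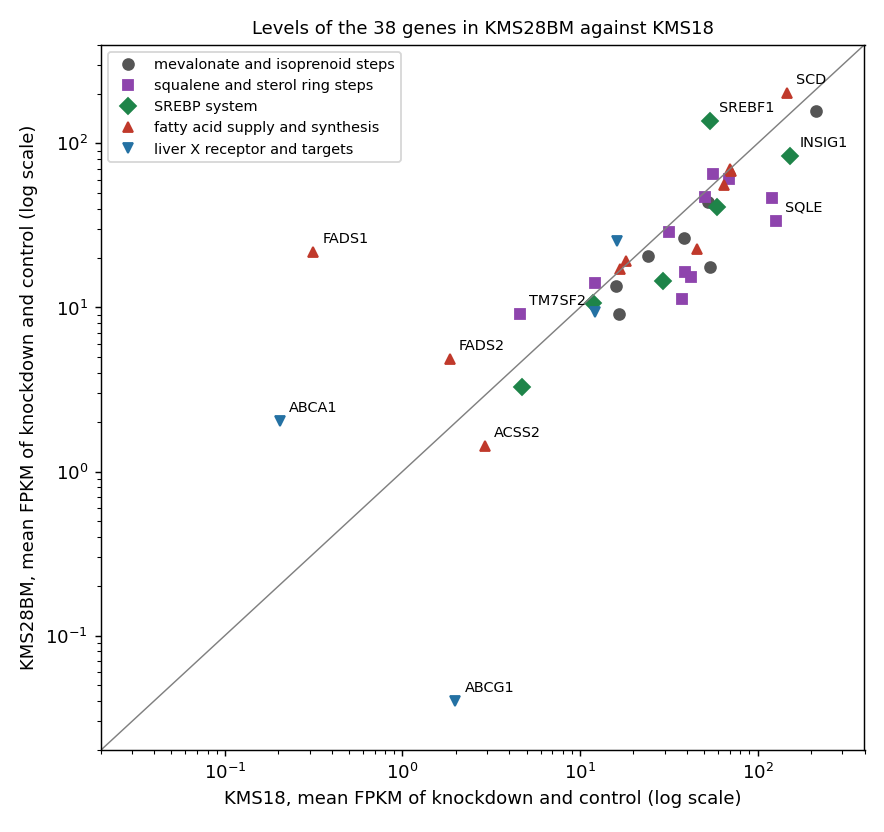
Mean FPKM of the knockdown and control libraries in KMS28BM (vertical) against KMS18 (horizontal) for the 38 genes, on log scales, with a line of equality and symbols for roles. FADS1 and ABCA1 lie far above the line, ABCG1 far below it, and most sterol ring genes lie below it.

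The listed gene length, which FPKM divides by, also moved for a few genes. It differed by over 10% between knockdown and control in KMS18 for 5 of 38 genes (13.2%), SREBF1, ACSS2, ELOVL6, FADS2 and ABCA1, against 17.8% of all tested genes listed in both libraries. In KMS28BM it did so for ABCG1 alone (2.63%, against 16.1%). SREBF1 was listed at 1957 bases in KMS18 knockdown cells and 1617 bases in KMS18 control cells, and at 2092 bases in KMS28BM knockdown cells and 1906 bases in KMS28BM control cells, so the length was greater after knockdown in both lines. For SREBF1 in KMS18 this made the difference in log2(FPKM + 1) larger, at -0.33, than the log2 count ratio of -0.12. ABCA1 in KMS18 was listed at 10494 bases in knockdown cells and 5254 bases in control cells, and its FPKM read lower while its counts read higher after knockdown. Which transcripts the lengths stand for is not given in the tables.

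Of 56 further genes of sterol transport, SREBP processing, nuclear receptor partners, isoprenoids and fatty acid handling, 55 were tested, 3 rose, 7 fell and 45 did not pass (18.2% called), with a median log2 difference of 0.00. ERLIN1, which helps degrade sterol-regulated proteins of the endoplasmic reticulum, fell most, to 2.49 FPKM in KMS18 knockdown cells, against 6.03 FPKM in KMS18 control cells, and to 8.97 FPKM in KMS28BM knockdown cells, against 21.0 FPKM in KMS28BM control cells (log2 difference -1.43, SE 0.15, adjusted p = 0.0056, edgeR). The lysosomal genes LIPA, the acid lipase that frees cholesterol from its esters (-0.77, SE 0.12), and NPC2, which carries cholesterol out of the lysosome (-0.47, SE 0.10), fell.

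Of the 19 further genes of fatty acid handling, 1 rose, 3 fell and 15 did not pass edgeR. Their median log2 difference was 0.0, with 10 above 0 and 9 below, so they did not share the lean of the 10 genes above. HACD2, a dehydratase of chain elongation (-0.89, SE 0.14), LPIN2, the LPIN1 paralogue (-0.74, SE 0.12), and the elongase ELOVL1 (-0.41, SE 0.10) fell, and DGAT2, which makes triglycerides, rose (0.52, SE 0.09). In the isoprenoid branches, DHDDS, of dolichol synthesis (0.47, SE 0.11), and COQ2, of ubiquinone synthesis (0.64, SE 0.14), rose, and the edgeR adjusted p of LIPA, NPC2 and these 6 genes ran from 0.0138 for HACD2 to 0.046 for DHDDS. Among the LXR partners and coregulators, 0 of 7 passed edgeR (1 at an unadjusted p under 0.05, 0 with DESeq2). RXRA, a partner of LXR, was at 7.26 FPKM in KMS18 knockdown cells and 5.54 FPKM in KMS18 control cells. In KMS28BM it was at 9.15 FPKM in knockdown cells and 5.91 FPKM in control cells (log2 difference 0.31, SE 0.12, edgeR adjusted p = 0.148). RXRB, another partner, was more abundant, at 29.9 and 25.7 FPKM in KMS18 knockdown and control cells. It was at 19 and 18.9 FPKM in those of KMS28BM (log2 difference 0.02, SE 0.1, edgeR adjusted p = 0.922).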

How the data were processed

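RNA from 4 cultures was sequenced, and per the labels' protocols libraries were made from 100 ng of total RNA with a TruSeq kit (version 2) that keeps no strand. The authors deposited an expected count, an FPKM value and a gene length for each gene and library, per the file headers. GRCh37 and hg19 are the builds, and HISAT, Bowtie2 and STAR the tools, listed per the submitters' processing notes, with no role stated. The counting step is not stated in the sources used here. Coordinates come from GENCODE version 29 (GRCh38) by gene identifier.

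Identifiers with a common symbol were added together, in both units (23844 identifiers, 22187 genes). Counts were rounded and tested with edgeR 4.0.16 (R 4.3.3) using TMM, the default low-count filter (minimum count 10), and cell line and construct in the model, since each line gave 1 library of each construct and so pairs them. With 1 residual degree of freedom, the spread was moderated across the 14870 genes (5.85 prior degrees of freedom). Such p-values set the size of a difference against this moderated spread, which draws on how unlike the lines moved and on all genes tested. The printed SE is the fitted difference divided by the square root of the test statistic. Within a line, exact 95% Poisson intervals of the log2 count ratio cover counting error only. Alternatives used DESeq2 1.42.0 and limma 3.58.1. The fit was tested on simulated data. Values per library are given for those of the 38 genes past the test and for a list of key pathway genes. They are also given for those of the 38 with a difference of at least 0.5 on log2(FPKM + 1) in a line. Other than RXRA and RXRB, further pathway genes are named only where past the test. RXRA, RXRB and library values for ERLIN1, MVD, FDPS, SQLE, FADS1 and FADS2 were added after their values were seen. The members, lists and motifs were chosen with earlier results of these data known. A called gene of the wider pathway list is not reported here by name.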

Additional observations from a re-analysis of the deposited data

Results flagged for a closer look

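SREBF1 was singled out because its log2 count ratio had opposite signs in the lines, with both Poisson intervals away from 0. It was -0.12 in KMS18 and 0.27 in KMS28BM, a gap of 0.39. With 1 library per line and construct the difference between the lines was not tested.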

How the results depend on the processing

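Of the 38 genes, 7 passed edgeR as reported. The count was 1 with no filter (all genes: 367 calls, against 1312), 1 with each symbol read from its identifier with the most counts (855), 4 with limma on log2(FPKM + 1), and 0 with no replicate block, that is without the pairing by cell line (all genes: 0 calls, 215 at an unadjusted p under 0.05). The 4 genes limma called were NR1H2, MVK, MVD and TM7SF2, all higher, so no lowered gene passed there. It stayed between 5 and 7 under median of ratios scaling, 5 CPM, DESeq2 and limma on log2(FPKM + 0.1). NR1H2 passed 7 of 8 alternatives, MVK and MSMO1 4, ACLY and ACACA 3, SCAP 2 and LPIN1 1, and no call changed direction. In KMS18, 2 genes met the size rule with a pseudocount of 0.1, against 1. Leaving out a line moved the median log2 difference between -0.19 and -0.07. Genes with few counts (ABCG1 in KMS28BM, FADS1 and ABCA1 in KMS18) are limited by depth.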
